A study of Mus musculus with 25 samples.

Results

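The genes described here are 10 members of the interleukin-6 (IL-6) axis and the acute-phase response: Il6, Il6ra, Il6st, Osmr, Socs3, Stat3, Saa3, Lcn2, Serpina3n and Lrg1. They were read from every probe set (a group of short DNA probes for 1 transcript) annotated to 1 of these symbols alone, which gave 21 probe sets among 34945 with a single symbol, and 10 genes among 18193. Of these 21 probe sets 20 passed a filter on dim signals and were tested, and 1, the dimmest of the 3 for Osmr, did not, at intensities of 8.2 to 84.5. Whole lung RNA of 25 female mice was measured, each on 1 Affymetrix mouse genome array. The mice were FP-KO on Day 0, Day 7 and Day 14 (n = 4 each), and WT on Day 0 and Day 7 (n = 4 each) and Day 14 (n = 5). FP is the receptor for prostaglandin F, encoded by Ptgfr. The labels' protocol gives all mice bleomycin through the trachea on Day 0, at 1 mg/kg and in a saline volume of 40 ul, and the Day 0 arrays are labelled as baseline. Strain, age and the deleted part of Ptgfr were not given in the labels, nor was a saline-treated group used, so time after bleomycin and any effect of the instillation itself cannot be told apart.

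IL-6 is a secreted cytokine that binds its own receptor chain, encoded by Il6ra, and then the shared signalling chain gp130, encoded by Il6st. Oncostatin M, a related cytokine, signals through gp130 paired with the chain encoded by Osmr. Both routes activate Janus kinases and the transcription factor STAT3, which induces Socs3, an inhibitor that binds the receptor complex and shuts the signal off. In the acute-phase response, IL-6 together with IL-1 and TNF induces secreted proteins, among them serum amyloid A, lipocalins and serine protease inhibitors. Bleomycin injures the lung epithelium and is widely used in mice to model inflammation followed by fibrosis.

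Ptgfr was read first, as a check of the genotype labels. Its brightest probe set reached at most 57.6 in the 12 FP-KO lungs and was at least 122.6 in the 13 WT lungs. The authors' values ran from 0 to 51673.8 over all arrays, each array was scaled to a trimmed mean of 500, and array medians lay between 112.3 and 151.5. The Day 14 arrays fell into 2 sets on the second principal component of all tested probe sets, at -54.5 to -37.07 (FP-KO No. 1 and 2, WT No. 1 to 3) and at 0.98 to 8.23 (FP-KO No. 3 and 4, WT No. 4 and 5). The labels name no batch, both sets hold both genotypes, and Day 14 values are therefore also given within each. FP-KO Day 14 No. 2 stood apart on the first component, at -22.96, beside -7.63 to 14.43 in the other FP-KO Day 14 lungs and 15.3 to 43.71 in WT Day 14 lungs, and the Day 14 differences between the genotypes are given with and without it.

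The promoters of the 5 members that differed between the genotypes on Day 14 are shown, since these genes changed in the same direction. Each runs 5′ to 3′ along the gene, from 250 bases before to 50 bases after the annotated start (RefSeq, GRCm38.p6), and capitals mark matches to 3 motifs searched on both strands: TTCNNNGAA for STAT factors, TTNNGNAA for C/EBP factors and the standard NF-kB consensus. The regions are chr5:30012864-30013163 for Il6 (plus strand), chr11:117969317-117969616 for Socs3 (minus strand), chr7:46715627-46715926 for Saa3 (minus strand), chr12:104406458-104406757 for Serpina3n (plus strand) and chr17:56121897-56122196 for Lrg1 (minus strand).
Il6: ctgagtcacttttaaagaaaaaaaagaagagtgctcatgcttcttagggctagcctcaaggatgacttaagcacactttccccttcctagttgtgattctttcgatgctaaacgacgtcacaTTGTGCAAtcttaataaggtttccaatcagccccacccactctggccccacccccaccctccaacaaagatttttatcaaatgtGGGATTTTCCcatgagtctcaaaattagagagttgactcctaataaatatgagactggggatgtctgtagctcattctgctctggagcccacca
Socs3: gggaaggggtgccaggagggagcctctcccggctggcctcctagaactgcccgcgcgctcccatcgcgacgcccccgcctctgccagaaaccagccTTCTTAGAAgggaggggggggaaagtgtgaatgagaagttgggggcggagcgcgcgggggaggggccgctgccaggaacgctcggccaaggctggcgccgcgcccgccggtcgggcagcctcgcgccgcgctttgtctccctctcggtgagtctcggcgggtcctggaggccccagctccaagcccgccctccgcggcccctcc
Saa3: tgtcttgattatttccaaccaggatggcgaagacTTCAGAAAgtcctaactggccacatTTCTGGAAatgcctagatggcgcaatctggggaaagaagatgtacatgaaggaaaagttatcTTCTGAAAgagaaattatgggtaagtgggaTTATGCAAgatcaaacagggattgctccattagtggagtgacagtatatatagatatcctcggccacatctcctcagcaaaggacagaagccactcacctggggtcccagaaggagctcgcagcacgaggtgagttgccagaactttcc
Serpina3n: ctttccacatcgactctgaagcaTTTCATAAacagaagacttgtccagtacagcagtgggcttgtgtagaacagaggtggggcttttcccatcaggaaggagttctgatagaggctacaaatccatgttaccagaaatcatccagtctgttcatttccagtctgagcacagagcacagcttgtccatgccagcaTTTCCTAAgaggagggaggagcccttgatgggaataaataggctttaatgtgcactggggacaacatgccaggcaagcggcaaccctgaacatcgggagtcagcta
Lrg1: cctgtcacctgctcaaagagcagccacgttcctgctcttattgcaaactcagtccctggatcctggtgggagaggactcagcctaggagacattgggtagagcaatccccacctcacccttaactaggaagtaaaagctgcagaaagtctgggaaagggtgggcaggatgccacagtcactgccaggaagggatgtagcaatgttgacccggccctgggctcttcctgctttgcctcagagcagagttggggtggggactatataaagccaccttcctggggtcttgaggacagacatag

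From the 5′ end, the capitals are 1 C/EBP and then 1 NF-kB match in Il6, 1 STAT match in Socs3, 4 C/EBP matches in Saa3 and 2 C/EBP matches in Serpina3n, with no overlap between matches and no match in Lrg1. Over the promoters of the 10 members, the STAT motif was found in 1, that of Socs3, against 8.3% of 32851 mouse promoters of the same length. The NF-kB motif was found in 1 of 10, that of Il6, against 8.46% of all promoters, and the C/EBP motif in 6 of 10, against 40.7%. A match describes the letters only.

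After bleomycin, 7 of the 10 members rose by Day 7 in both genotypes: Il6, Osmr, Socs3, Saa3, Lcn2, Serpina3n and Lrg1. Saa3 rose the most, to 6023 ± 3224 in FP-KO lungs on Day 7, against 332 ± 109 on Day 0, and to 4300 ± 1956 in WT lungs on Day 7, against 249.98 ± 9.43 on Day 0 (intensity, SD, n = 4 each). Il6 was above the filter on dim signals in 0 of the Day 0 arrays and was tested through lungs in which it was high. Its place in this count and in those of the later comparisons is therefore a description. The other 6 were above the filter in all 8 Day 0 arrays. On Day 14, Lcn2, Serpina3n and Lrg1 of the members were still above Day 0 in FP-KO lungs, and in WT lungs the 7 genes were still above Day 0 and Il6ra was below it. Each gene is counted by its brightest probe set, at an adjusted p under 0.05 in limma with Benjamini-Hochberg adjustment over 21403 probe sets. The shares set beside such counts are over all these probe sets, dimmer ones of the same gene included, so the units differ.

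Of all probe sets tested, 10.2% were higher on Day 7 than on Day 0 in FP-KO lungs and 15.1% in WT lungs, the background for the 7 members called in each. The median log2 change of the 10 members was 1.2 in FP-KO lungs and 1.74 in WT lungs, while the medians over all probe sets lay near 0. From Day 0 to Day 14 the members counted were 3 of 10 in FP-KO lungs, with 1.29% of all probe sets higher, and 7 of 10 higher with 1 lower in WT lungs, with 19.2% higher and 17.2% lower. By limma, 6 of 10 in FP-KO lungs and 8 of 10 in WT lungs had an unadjusted p under 0.05 over this time, in either direction. Between Day 7 and Day 14, Il6, Socs3, Saa3 and Serpina3n fell in FP-KO lungs, 4 of 10, while 9.08% of all probe sets were lower. Il6 was tested largely through Day 7 arrays, so its fall is a description. In WT lungs 0 of 10 passed by limma between these days, with 5 of 10 at an unadjusted p under 0.05 and 4.33% of all probe sets called in either direction. Without WT Day 7 No. 3 (limma adjusted p = 0.0114) or WT Day 14 No. 4 (limma adjusted p = 0.04), Il6 was also called lower in WT lungs over this time, again as a description. The FP-KO count on Day 14 against Day 0 was 1, Lcn2, without FP-KO Day 0 No. 1, FP-KO Day 0 No. 4 or FP-KO Day 14 No. 1.

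**Figure D1:**
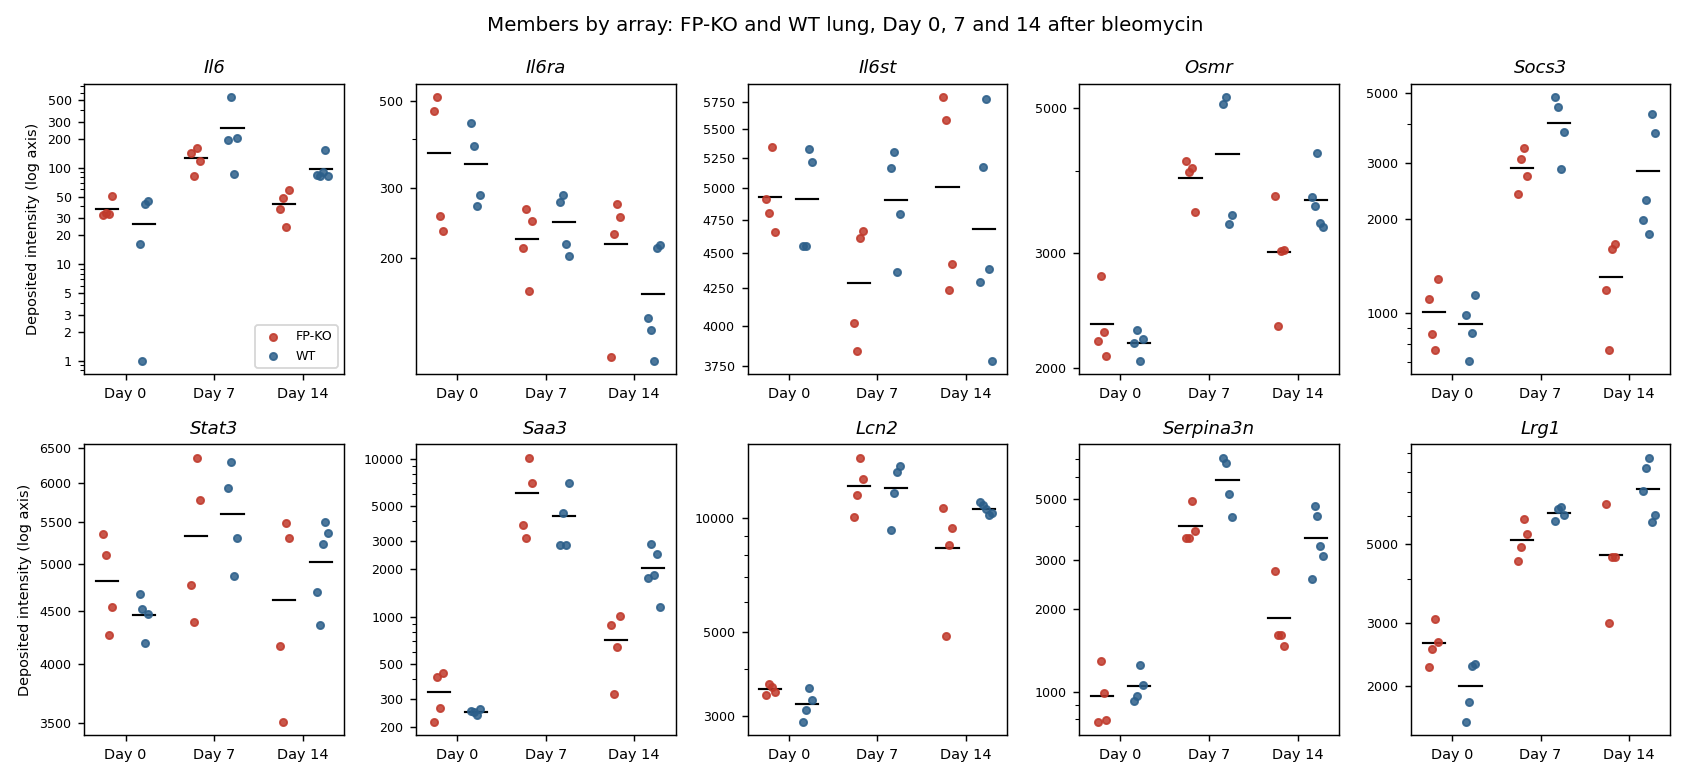
Intensity of the brightest probe set of each member (vertical log axis, own scale per gene) in FP-KO (left, red) and WT (right, blue) lungs on Day 0, 7 and 14; points are mice and bars are group means. Saa3 and Socs3 are high in both genotypes on Day 7, and on Day 14 their FP-KO points lie below the WT points.

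Il6, the ligand, was dim. In FP-KO lungs its intensity was 32.3, 33.9, 33.6 and 50.7 on Day 0, 142.9, 82.8, 160.2 and 118.9 on Day 7, and 37.6, 49.0, 24.6 and 59.5 on Day 14. In WT lungs it was 16.4, 1.0, 41.9 and 45.6 on Day 0, 195.5, 544.2, 86.4 and 205.6 on Day 7, and 83.9, 83.0, 90.8, 151.5 and 81.8 on Day 14. The Day 7 lungs were thus above the Day 0 lungs in both genotypes without overlap, WT Day 7 No. 2 was the brightest of all, and on Day 14 the highest FP-KO lung lay below the lowest WT lung. After quantile normalization, values under 24.4 were set to that floor before log2, whereas the intensities listed here are the deposited ones. In this probe set the floor touched 2 WT Day 0 arrays and 1 FP-KO Day 14 array (No. 3) and can understate their changes.

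On the log2 scale Il6 rose by Day 7 by 1.85 ± 0.37 in FP-KO lungs (SE; limma adjusted p = 0.00164) and by 2.73 ± 0.37 in WT lungs (limma adjusted p = 1.17e-05). By Day 14 the difference from Day 0 was 0.15 ± 0.37 in FP-KO lungs (limma adjusted p = 0.862), and in WT lungs Il6 was still up by 1.65 ± 0.35 (limma adjusted p = 0.00105). Il6 passed the filter on dim probe sets, an intensity above 136.6 after normalization in at least 4 arrays, through 6 arrays, 5 of them from Day 7 and 1 from WT Day 14. Its being tested at all thus rests largely on Day 7. The IL-6 family held 7 ligands on the array, of which 5 were tested. By Day 7, 2 of the 5 rose in each genotype, against 10.2% of all probe sets in FP-KO and 15.1% in WT lungs. In WT lungs 1 fell, Clcf1, at -0.66 ± 0.22 (limma adjusted p = 0.0274), while 3071 of 21403 probe sets were lower. Apart from Il6, Lif, a ligand of gp130 and the LIF receptor, rose by Day 7 by 1.21 ± 0.25 in FP-KO lungs (limma adjusted p = 0.00221) and 1.79 ± 0.25 in WT lungs (limma adjusted p = 1.65e-05). Osm, which encodes oncostatin M, did not pass, at -0.09 ± 0.31 in FP-KO lungs (limma adjusted p = 0.874) and 0.73 ± 0.31 in WT lungs (limma adjusted p = 0.0822).

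Among the receptor chains, Osmr alone of the 3 members rose after bleomycin. Its intensity in FP-KO lungs was 2198.6, 2768.8, 2269.3 and 2088.6 on Day 0, 4145.0, 3983.9, 4050.9 and 3464.5 on Day 7, and 3671.8, 2321.2, 3019.8 and 3034.2 on Day 14. WT lungs read 2183.6, 2285.1, 2050.4 and 2217.0 on Day 0, 5069.5, 5199.4, 3325.0 and 3432.2 on Day 7, and 3649.6, 3538.9, 4266.4, 3334.8 and 3283.6 on Day 14. Day 7 lay above Day 0 without overlap in both genotypes, and on Day 14 FP-KO No. 2 was back among the Day 0 values. The log2 change by Day 7 was 0.70 ± 0.14 in FP-KO lungs (SE; limma adjusted p = 0.00174) and 0.91 ± 0.14 in WT lungs (limma adjusted p = 5.33e-05). By Day 14 it was 0.38 in FP-KO lungs (95% interval 0.08 to 0.68; limma adjusted p = 0.149) and 0.74 ± 0.14 in WT lungs (limma adjusted p = 0.000264). The second tested Osmr probe set moved in the same direction.

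Il6ra, the chain specific to IL-6, was read by 2 probe sets whose changes from Day 0 to Day 14 differed. Its brighter probe set was at 469.6, 511.0, 256.2 and 234.3 on Day 0, 212.3, 266.9, 165.2 and 247.7 on Day 7, and 112.8, 230.2, 273.2 and 254.7 on Day 14 in FP-KO lungs. In WT lungs it was at 437.7, 385.0, 271.2 and 288.4 on Day 0, 277.7, 288.5, 217.6 and 202.0 on Day 7, and 141.5, 131.3, 110.0, 212.4 and 215.7 on Day 14. The 5 WT Day 14 lungs were below the 4 WT Day 0 lungs, and the FP-KO groups overlapped. Il6ra fell in WT lungs by 1.06 on the log2 scale on Day 14 relative to Day 0 (SE 0.29; limma adjusted p = 0.00672). With the second set of Day 14 arrays alone this was -0.63 (limma adjusted p = 0.219), and the other Il6ra probe set gave -0.10 (limma adjusted p = 0.862). In FP-KO lungs the brighter probe set differed by -0.75 between these days (95% interval -1.39 to -0.12; limma adjusted p = 0.175), and the other was at 0.52 (-0.32 to 1.35; limma adjusted p = 0.498). In that other probe set, Day 0 No. 1 lay below the rest of its group in both genotypes. It was at 29.7 beside 200.1 to 215.9 in FP-KO lungs, and at 84.8 beside 191.9 to 217.6 in WT lungs. The part of these low arrays in the difference between the probe sets was not tested.

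Il6st, the shared gp130 chain, was read by 4 probe sets that did not agree. The brightest lay between 3778.1 and 5794.6 over all 25 lungs and passed in no comparison. Relative to Day 0 it differed on Day 7 by -0.26 ± 0.14 in FP-KO lungs (SE; limma adjusted p = 0.2) and -0.04 ± 0.14 in WT lungs (limma adjusted p = 0.88). A dimmer Il6st probe set was at 958.8 to 1463.7 in the 5 Day 14 arrays of the first set, of both genotypes, against 2053.1 to 3040.2 in the other 20 arrays. That probe set gave a log2 change of -0.67 from Day 0 to Day 14 in WT lungs (limma adjusted p = 0.0353), so this call moved with the set of arrays, whose part in it was not tested. Lifr, the LIF receptor chain that also pairs with gp130, fell by Day 7 by 0.43 ± 0.13 in FP-KO lungs (limma adjusted p = 0.0251) and by 0.67 ± 0.13 in WT lungs (limma adjusted p = 0.00045).

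**Figure D2:**
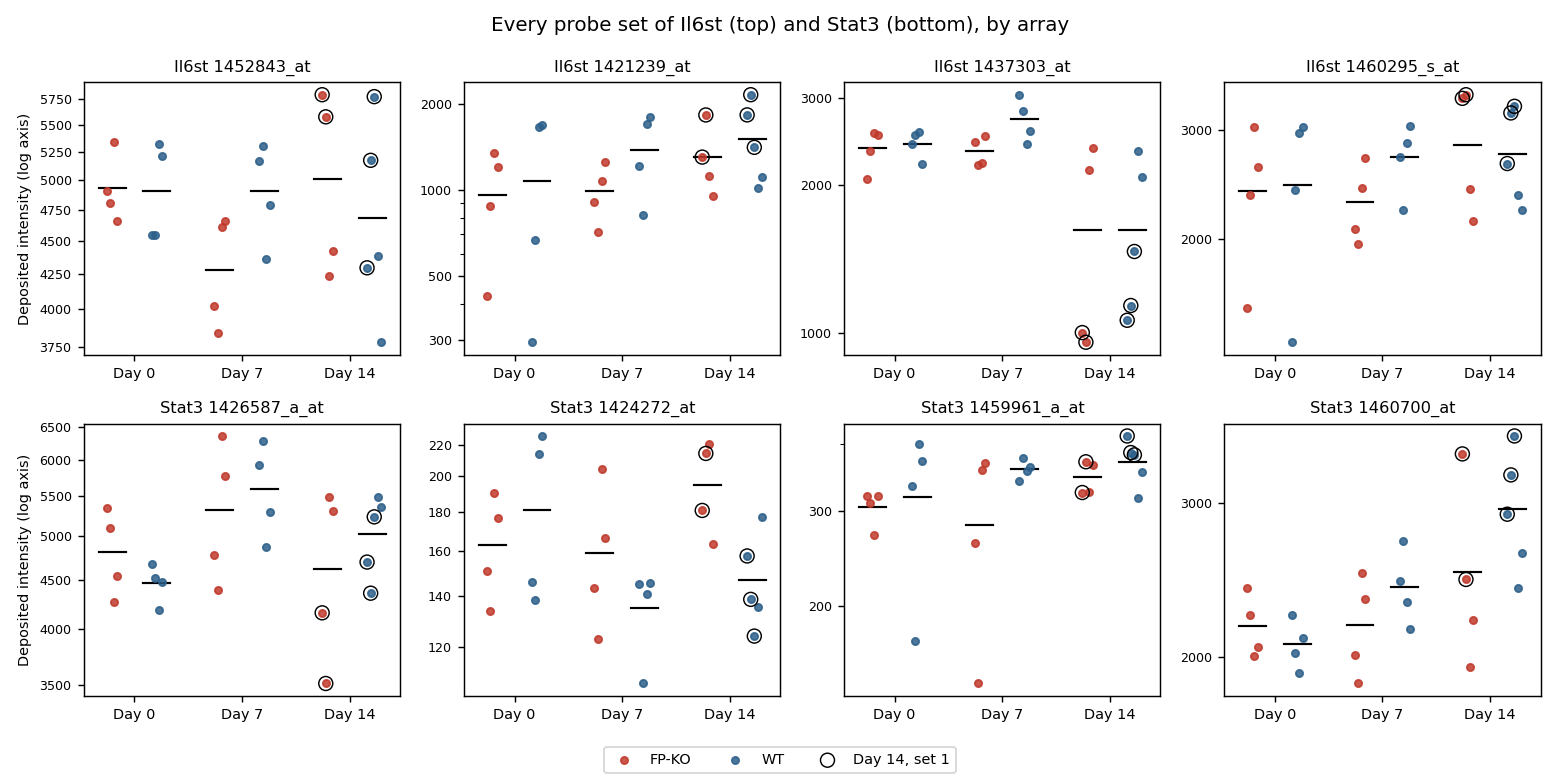
Intensity in each mouse of the 4 probe sets of Il6st (top row) and the 4 of Stat3 (bottom row), by day, with FP-KO left of WT; bars are group means, and rings mark the first set of Day 14 arrays. In the Il6st probe set with 5 Day 14 arrays between 958.8 and 1463.7, the other arrays lie above 2053.

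Stat3, the transcription factor of the pathway, differed little at the RNA level, while Socs3, its feedback inhibitor, moved strongly. The brightest Stat3 probe set lay between 3509.8 and 6358.7 over all lungs. From Day 0 to Day 7 it differed by 0.07 on the log2 scale in FP-KO lungs (limma adjusted p = 0.738) and by 0.29 ± 0.13 in WT lungs (SE; limma adjusted p = 0.0898), where the Day 7 lungs were all above the Day 0 lungs. The other Stat3 probe sets disagreed in WT lungs: a dim one was lower on Day 7 (-0.40 ± 0.15, limma adjusted p = 0.0419), and another was higher on Day 14 than on Day 0 (0.52 ± 0.14, limma adjusted p = 0.00703). The latter also moved with the set of arrays, whose part in the call was not tested. Its WT Day 14 mean was 3239 in the first set and 2513 in the second, against 2069 in WT lungs on Day 0. STAT3 is controlled largely by phosphorylation, which arrays do not read.

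Socs3 intensity in FP-KO lungs was 1111.6, 860.5, 766.1 and 1288.0 on Day 0, 2395.5, 3082.3, 3346.3 and 2726.0 on Day 7, and 1188.1, 763.8, 1601.6 and 1664.7 on Day 14. WT lungs read 988.8, 705.3, 863.5 and 1140.7 on Day 0, 4872.8, 4539.6, 2869.8 and 3758.5 on Day 7, and 1981.9, 2283.3, 1786.4, 4310.8 and 3752.9 on Day 14. Day 7 was above Day 0 without overlap in both genotypes, and on Day 14 each FP-KO lung was below each WT lung, with FP-KO No. 1 inside and No. 2 just below the FP-KO Day 0 range. Socs3 rose by Day 7 by 1.5 ± 0.27 in FP-KO lungs (log2, SE; limma adjusted p = 0.000659) and 2.07 ± 0.27 in WT lungs (limma adjusted p = 7.3e-06). In FP-KO lungs it then fell by 1.18 ± 0.27 between Day 7 and Day 14 (limma adjusted p = 0.00663), and the Day 14 difference from Day 0 was 0.32 ± 0.27 (limma adjusted p = 0.549). In WT lungs it was still up by 1.53 ± 0.26 on Day 14 (limma adjusted p = 0.000105). With the second set of Day 14 arrays alone, the FP-KO difference between Day 14 and Day 7 was -0.77 for Socs3 (limma adjusted p = 0.0927) and -1.76 for Il6 (limma adjusted p = 0.0961), against -1.70 for Il6 with both sets. Neither passed with the fewer arrays.

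Saa3 encodes serum amyloid A3, an acute-phase apolipoprotein that in mice is made outside the liver, chiefly by macrophages and epithelium. Its intensity in FP-KO lungs was 216.4, 412.1, 262.4 and 436.5 on Day 0, 3786.5, 3150.1, 10139.7 and 7014.2 on Day 7, and 883.8, 321.6, 644.2 and 1003.8 on Day 14. In WT lungs it was 252.1, 248.6, 238.2 and 261.0 on Day 0, 2825.4, 4545.6, 2853.4 and 6973.9 on Day 7, and 1754.5, 2858.8, 1829.7, 2484.8 and 1148.7 on Day 14. On Day 7 the genotypes overlapped and the brightest lung was FP-KO, whereas on Day 14 the 4 FP-KO lungs were below the 5 WT lungs. Saa3 rose by Day 7 by 4.04 ± 0.39 in FP-KO lungs, a 16.5-fold change (log2, SE; limma adjusted p = 1.29e-06), and by 3.98 ± 0.39 in WT lungs, a 15.7-fold change (limma adjusted p = 2.9e-07). It then fell by 3.01 ± 0.39 between Day 7 and Day 14 in FP-KO lungs (limma adjusted p = 0.00013), and in WT lungs the difference was -1.03 ± 0.37 (limma adjusted p = 0.0961). On Day 14 relative to Day 0 it differed by 1.03 ± 0.39 in FP-KO lungs (limma adjusted p = 0.146; 1.39 and 0.044 without FP-KO Day 14 No. 2), and in WT lungs it was up by 2.94 ± 0.37 (limma adjusted p = 3.64e-06).

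Lcn2 encodes lipocalin 2, which withholds iron from bacteria by binding their siderophores. Its intensity in FP-KO lungs was 3421.8, 3644.7, 3592.8 and 3490.0 on Day 0, 10076.5, 11509.8, 14478.6 and 12735.7 on Day 7, and 10662.1, 4890.2, 8533.3 and 9410.3 on Day 14. In the WT groups the values were 2905.6, 3122.8, 3568.6 and 3313.1 on Day 0, 9331.5, 11657.3, 13256.1 and 13772.6 on Day 7, and 11062.7, 10863.2, 10583.6, 10231.7 and 10350.8 on Day 14. The FP-KO Day 14 lungs spread widely, from No. 2, the closest to Day 0, to No. 1 among the WT values, while the WT Day 14 lungs were close together. Lcn2 was up on Day 14 by 1.18 ± 0.17 in FP-KO lungs (log2, SE; limma adjusted p = 0.00201) and 1.77 ± 0.16 in WT lungs (limma adjusted p = 1.53e-07), after 1.66 ± 0.17 and 1.87 ± 0.17 on Day 7 (limma adjusted p = 2.7e-06 in FP-KO and 1.76e-07 in WT lungs).

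Serpina3n encodes a secreted serine protease inhibitor of the antichymotrypsin family. Its intensity in FP-KO lungs was 781.6, 1296.0, 996.4 and 792.2 on Day 0, 3599.6, 3624.3, 4935.8 and 3823.7 on Day 7, and 2754.0, 1612.4, 1605.6 and 1470.6 on Day 14. The WT values were 929.1, 965.3, 1252.6 and 1060.9 on Day 0, 7067.4, 6741.1, 5222.5 and 4322.6 on Day 7, and 2569.2, 4703.1, 4344.1, 3394.1 and 3113.9 on Day 14. The genotypes overlapped on Day 14 by 1 lung each, FP-KO No. 1 lying above WT No. 1. Serpina3n rose by Day 7 by 2.02 ± 0.22 in FP-KO lungs (log2, SE; limma adjusted p = 4.74e-06) and 2.42 ± 0.22 in WT lungs (limma adjusted p = 1.61e-07). In FP-KO lungs it fell by 1.09 ± 0.22 between Day 7 and Day 14 (limma adjusted p = 0.00316).

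Lrg1 encodes a leucine-rich glycoprotein that modulates TGF-beta signalling in endothelium. Its intensity in FP-KO lungs was 2266.5, 2545.6, 3086.1 and 2661.6 on Day 0, 4486.5, 4922.9, 5875.9 and 5329.1 on Day 7, and 6490.0, 3002.7, 4605.9 and 4610.9 on Day 14. The WT values were 1592.0, 1812.0, 2279.9 and 2312.2 on Day 0, 5816.8, 6278.1, 6373.1 and 6055.9 on Day 7, and 7040.4, 8206.5, 8754.3, 5788.0 and 6051.2 on Day 14. FP-KO Day 14 No. 2 fell within the FP-KO Day 0 range, and No. 1 lay among the WT Day 14 lungs. In WT lungs Day 14 differed from Day 7 by 0.28 (log2; limma adjusted p = 0.328), with the median lung higher on Day 14. The WT Day 14 lungs above all WT Day 7 lungs were those of the first set, at 7040.4 to 8754.3. Those of the second set were at 5788.0 and 6051.2, against 5816.8 to 6373.1 on Day 7. Lrg1 was up from Day 0 by 0.91 ± 0.19 on Day 7 (SE; limma adjusted p = 0.00191) and 0.80 ± 0.19 on Day 14 (limma adjusted p = 0.0286) in FP-KO lungs, and by 1.60 ± 0.19 (limma adjusted p = 2.02e-06) and 1.88 ± 0.18 (limma adjusted p = 1.76e-07) in WT lungs.

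**Figure D3:**
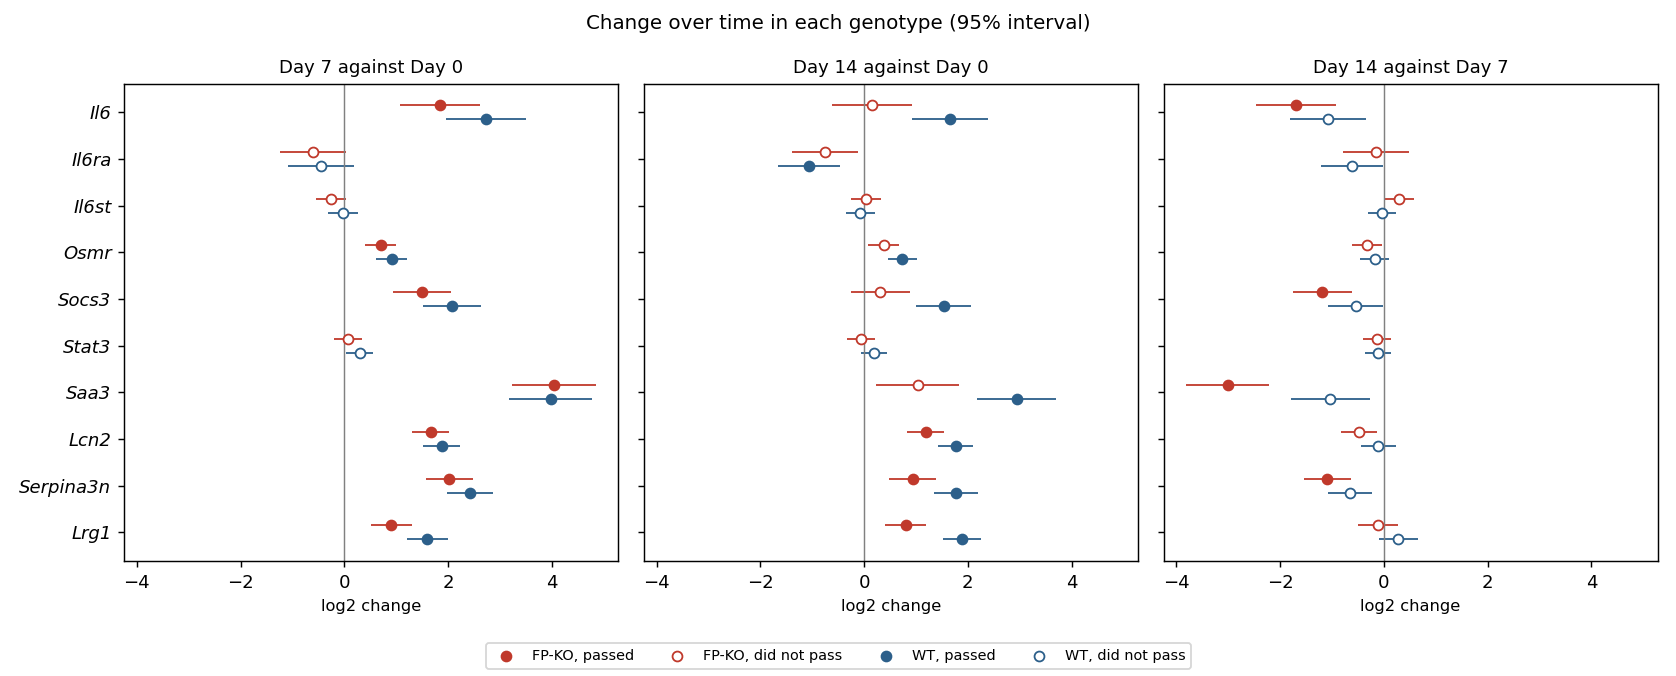
Log2 change of each member (horizontal axis, limma) on Day 7 against Day 0, Day 14 against Day 0 and Day 14 against Day 7, for FP-KO and WT lungs; lines are 95% intervals and filled points passed at an adjusted p under 0.05. From Day 0 to Day 7 the genotypes lie close together for Saa3 (4.04 in FP-KO, 3.98 in WT), and from Day 0 to Day 14 the Il6 and Socs3 changes in FP-KO (0.15 and 0.32) have intervals that include 0.

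FP-KO lungs were then set against WT lungs on each day. On Day 0 and on Day 7, 0 of 10 members differed by limma, with 1 member at an unadjusted p under 0.05 on each day, and 0.0234% and 0.0187% of all probe sets were called on those days. On Day 0 that member was Lrg1, at 0.42 ± 0.19 (log2, SE; limma adjusted p = 1). On Day 7 it was Serpina3n, at -0.54 (95% interval -0.996 to -0.09; limma adjusted p = 0.737). The Day 7 intervals were wide for other members, -1.5 to 0.05 for Il6, -1.02 to 0.10 for Socs3 and -0.41 to 1.19 for Saa3.

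On Day 14, 5 of 10 members were lower in FP-KO than in WT lungs and 0 were higher, while 4% of all probe sets were lower and 3% higher. The members were Saa3, Il6, Socs3, Serpina3n and Lrg1. Saa3 averaged 713 ± 301 in FP-KO lungs and 2015 ± 668 in WT lungs (intensity, SD, n = 4 and 5), a log2 difference of -1.59 ± 0.37 (SE; limma adjusted p = 0.0118). Il6 averaged 42.7 ± 15.01 in FP-KO lungs and 98.2 ± 30.001 in WT lungs, a difference of -1.35 ± 0.35 (limma adjusted p = 0.0242). These Il6 levels lay below the filter on dim signals in all but 1 WT lung, so its place among these members is a description. Socs3 averaged 1305 ± 418 in FP-KO lungs and 2823 ± 1135 in WT lungs, a difference of -1.10 ± 0.26 (limma adjusted p = 0.0126), and its other probe sets gave -0.72 (limma adjusted p = 0.0349) and -1.08 (limma adjusted p = 0.00517).

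Serpina3n averaged 1861 ± 599 in FP-KO lungs and 3625 ± 882 in WT lungs on Day 14, a log2 difference of -0.98 ± 0.21 (SE; limma adjusted p = 0.00702). Lrg1 averaged 4677 ± 1426 in FP-KO lungs and 7168 ± 1300 in WT lungs, a difference of -0.66 ± 0.18 (limma adjusted p = 0.0272). Groups did not overlap for Il6 (again as a description), Socs3 and Saa3, 3 of 10 members, while 4.92% of all probe sets were lower in FP-KO lungs without overlap. The members that did not pass were Lcn2 at -0.43 (95% interval -0.76 to -0.09; limma adjusted p = 0.116), Osmr at -0.26 (-0.54 to 0.03), Stat3 at -0.14 (-0.39 to 0.11), Il6st at 0.11 (-0.17 to 0.38) and Il6ra at 0.33 (-0.27 to 0.93).

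**Figure D4:**
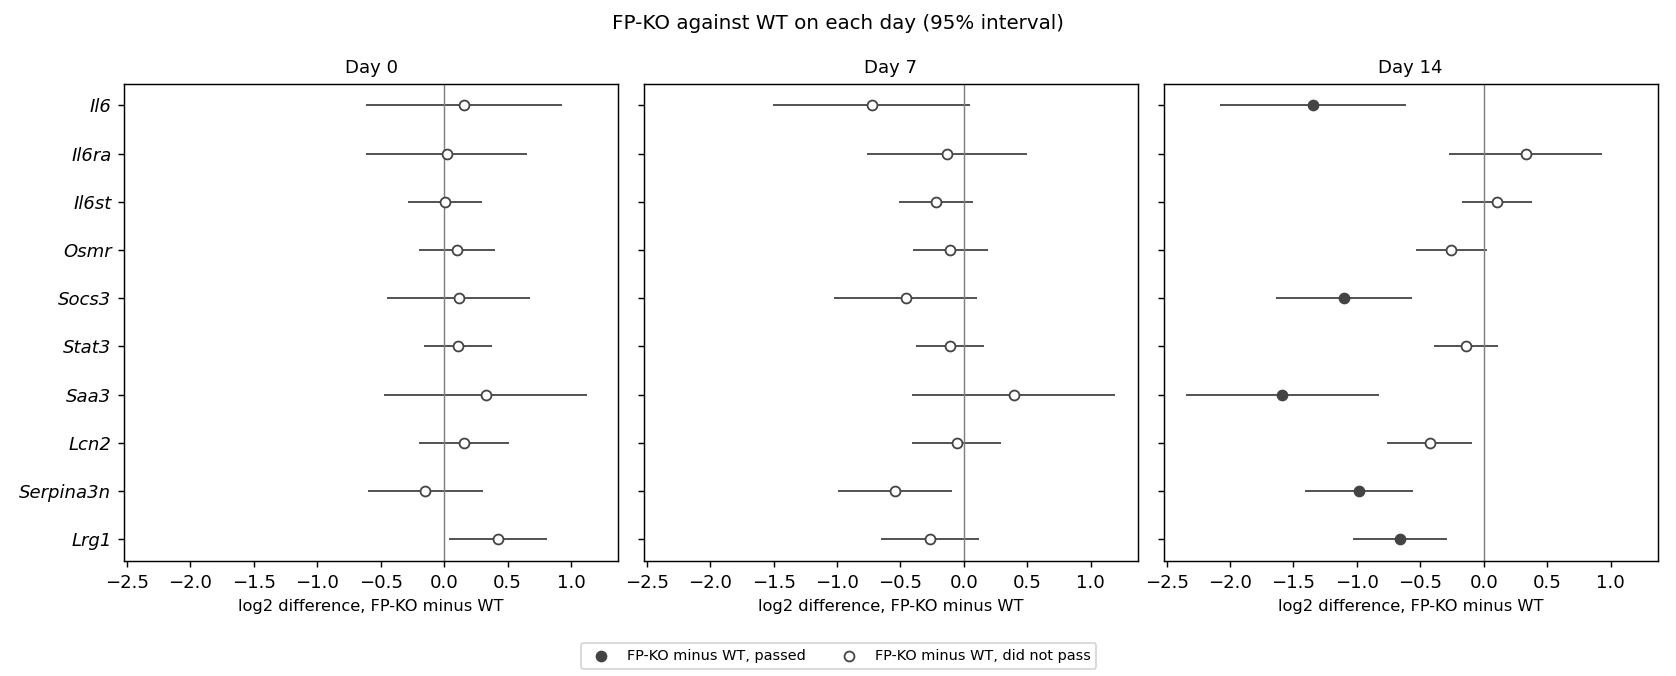
Log2 difference of FP-KO minus WT lungs for each member on Day 0, Day 7 and Day 14 (horizontal axis, limma), with 95% intervals; filled points passed at an adjusted p under 0.05. The filled points are the 5 members lower in FP-KO lungs on Day 14, from -1.59 for Saa3 to -0.66 for Lrg1.

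This count was smaller without FP-KO Day 14 No. 2, which also left fewer FP-KO lungs. The part of that mouse and the part of the smaller group were not tested. Without that mouse, 1 of 10 members was lower, Serpina3n at -0.93 (limma adjusted p = 0.0423). The probe sets called over the whole array came to 365, against 1500 with it. Leaving it out made the difference larger for Il6 and smaller for Serpina3n, Socs3, Saa3 and Lrg1. The others kept their sign and did not pass: Il6 at -1.40 (limma adjusted p = 0.0706), Socs3 at -0.86 (limma adjusted p = 0.0856), Saa3 at -1.22 (limma adjusted p = 0.0815) and Lrg1 at -0.48 (limma adjusted p = 0.16). Without FP-KO Day 14 No. 3 the count was 3, with Il6 at -1.12 (limma adjusted p = 0.0826) and Lrg1 at -0.65 (limma adjusted p = 0.0549). Lrg1 also did not pass without WT Day 14 No. 1, 2 or 3 (-0.65 to -0.58, limma adjusted p from 0.0508 to 0.0787). Il6 did not pass without WT Day 14 No. 4 (-1.19, limma adjusted p = 0.0587) or with the floor at the 10th percentile (-1.36, limma adjusted p = 0.0611), nor did Socs3 under array weights (-0.62, limma adjusted p = 0.0581). Lcn2 passed without FP-KO Day 14 No. 1 (-0.58, limma adjusted p = 0.03) and under array weights (-0.39, limma adjusted p = 0.0457). Within the first set of Day 14 arrays the FP-KO minus WT difference was -2.05 for Saa3, -1.19 for Il6, -1.12 for Socs3, -0.85 for Serpina3n and -0.85 for Lrg1, and 3 passed. The share of all probe sets called in that set is not given, so this count is a description. Within the second it was -1.06 for Saa3, -1.55 for Il6, -1.28 for Socs3, -1.06 for Serpina3n and -0.37 for Lrg1, and 0 passed with 2 lungs a genotype, where 5 probe sets of the whole array did.

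Whether the change since Day 0 itself differed between the genotypes was tested as an interaction. By Day 14, 1 of 10 members passed, with a negative interaction, while 0.794% of all probe sets passed in that direction. By limma, 6 of 10 members had an unadjusted p under 0.05. The member that passed was Lrg1, whose log2 change was smaller in FP-KO than in WT lungs (interaction -1.09 ± 0.26, limma adjusted p = 0.0381). That call was lost (interaction -1.16 to -0.90, limma adjusted p from 0.052 to 0.0923) without any 1 of FP-KO Day 0 No. 1 to 4, FP-KO Day 14 No. 2 or 3, WT Day 0 No. 1 or 2, or WT Day 14 No. 1, 2 or 3. Part of this interaction lay on Day 0, where FP-KO minus WT was 0.425 for Lrg1, against -0.66 on Day 14. The interaction was -1.91 ± 0.53 for Saa3 (limma adjusted p = 0.0677), -1.22 ± 0.37 for Socs3 (limma adjusted p = 0.0958) and -1.50 ± 0.51 for Il6 (limma adjusted p = 0.133). By Day 7 the interaction was called for 0 of 10 members, with 1 at an unadjusted p under 0.05, and for 0% of all probe sets by limma. Between Day 7 and Day 14 it was also called for 0 of 10 members by limma, with 1 at an unadjusted p under 0.05 and 0.014% of all probe sets called. For Saa3 it was -1.98 ± 0.53 over that time (limma adjusted p = 0.564).

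Other genes of the pathway were read as lists, each beside the same shares of all probe sets: 10.2% higher by Day 7 in FP-KO and 15.1% in WT lungs, and on Day 14 4% lower and 3% higher in FP-KO than in WT lungs. Without FP-KO Day 14 No. 2, an alternative added after seeing the data, the Day 14 shares were 0.976% lower and 0.729% higher. Of 17 tested STAT3 target genes, 6 rose by Day 7 in FP-KO lungs and 10 in WT lungs, where 1 fell, and 6 were lower in FP-KO than in WT lungs on Day 14. Timp1, an inhibitor of matrix metalloproteinases, was at -1.60 ± 0.27 (log2 difference, SE; limma adjusted p = 0.00167). Bcl3, a nuclear regulator of NF-kB, was at -0.80 ± 0.20 (limma adjusted p = 0.0166), and Junb, a subunit of AP-1, at -0.72 ± 0.17 (limma adjusted p = 0.0127). The median over the 17 genes was -0.31. Of these 6, 2 still passed without FP-KO Day 14 No. 2, Timp1 at -1.30 (limma adjusted p = 0.0112) and Il4ra, an IL-4 receptor chain, at -0.66 (limma adjusted p = 0.0137), and all 6 kept their sign. Of 10 tested JAK-STAT signalling genes, 1 differed on Day 14, Jak3, lower in FP-KO lungs at -0.54 ± 0.13 (limma adjusted p = 0.0175). Of 5 receptor chains 1 was higher, Lifr, at 0.45 ± 0.12 (limma adjusted p = 0.0285). Counts of 1 gene in such short lists are too small to set against the shares of all probe sets. Neither gene passed without FP-KO Day 14 No. 2 (Jak3 at -0.50, limma adjusted p = 0.0822; Lifr at 0.37, limma adjusted p = 0.15).

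The wider acute-phase list held 26 genes on the array beside the members, and 14 were bright enough to test. By Day 7, 6 rose and 1 fell in FP-KO lungs, and 7 rose and 2 fell in WT lungs. A2m, a broad protease inhibitor, rose by 2.19 ± 0.27 in FP-KO lungs (log2, SE; limma adjusted p = 1.8e-05) and 2.21 ± 0.27 in WT lungs (limma adjusted p = 3.7e-06). On Day 14, 3 were lower in FP-KO lungs and 1 was higher: Ptx3, a pentraxin of innate immunity, at -1.06 ± 0.32 (limma adjusted p = 0.048), A2m at -1.01 ± 0.26 (limma adjusted p = 0.0208), Il1rn, the IL-1 receptor antagonist, at -0.82 ± 0.21 (limma adjusted p = 0.0212), and Itih4 at 1.03 ± 0.25 (limma adjusted p = 0.0145). These 4 kept their sign without FP-KO Day 14 No. 2, where 0 of the 14 passed by limma, with 5 at an unadjusted p under 0.05. The classical liver isoforms Saa1 and Saa2 reached at most 89.9 and 57.3 in any lung and were not tested. Of 14 tested genes of the IL-1, TNF and IL-17 cytokines and NF-kB feedback, 5 rose by Day 7 in FP-KO lungs and 11 in WT lungs, and 3 were lower in FP-KO lungs on Day 14, among them Il1rn again and Tnfrsf1b, a TNF receptor, at -0.56 ± 0.16 (limma adjusted p = 0.0377). By limma 0 of these 14 passed without FP-KO Day 14 No. 2, with 4 at an unadjusted p under 0.05. Albumin, a defining liver transcript, reached at most 138.5, and 1 of 10 liver markers was bright enough to test, Cyp2e1, a cytochrome P450 that fat and lung also express. Cyp2e1 was lower in WT lungs than on Day 0 by Day 7 (-1.43 ± 0.30, limma adjusted p = 0.000967) and Day 14 (-2.03 ± 0.28, limma adjusted p = 1.37e-05), and higher in FP-KO than in WT lungs on Day 14 (1.32 ± 0.28, limma adjusted p = 0.0077; 1.04 and 0.0561 without FP-KO Day 14 No. 2). All 4 tested adipocyte markers likewise fell in WT lungs by Day 7 and by Day 14, among them Adipoq, which encodes adiponectin, at -2.56 ± 0.34 on the log2 scale on Day 14 (limma adjusted p = 8.59e-06). Their summed intensity on the array (5 genes) was 5416 to 12724 on Day 0 and 2603 to 3754 on Day 14 in WT lungs, and 1 of the 4, Retn, was higher in FP-KO than in WT lungs on Day 14, at 0.91 ± 0.26 (limma adjusted p = 0.0361; 0.82 and 0.148 without FP-KO Day 14 No. 2). Their part in the member changes was not tested. Hp, haptoglobin, reached 16308.2 and did not pass by Day 7, at -0.04 ± 0.10 in FP-KO lungs (limma adjusted p = 0.803) and -0.06 ± 0.10 in WT lungs (limma adjusted p = 0.703).

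Immune cell markers were read beside these genes. Of 15 macrophage markers 11 rose by Day 7 in FP-KO lungs and 13 in WT lungs. On Day 14, 8 were lower and 1 was higher in FP-KO than in WT lungs, among the lower C1qb, a complement C1q chain, at -1.10 ± 0.26 (log2, SE; limma adjusted p = 0.0137), and Msr1, a scavenger receptor, at -1.01 ± 0.25 (limma adjusted p = 0.0183). Without FP-KO Day 14 No. 2, 1 of the 15 passed, C1qc, another C1q chain, at -0.61 (limma adjusted p = 0.0408), 10 had an unadjusted p under 0.05, and the 9 kept their sign. The summed intensity of the 15 markers on Day 14 was 16954 in FP-KO No. 2 and 30667 to 31679 in the other 3 FP-KO lungs, against 38078 to 43905 in WT lungs. In bulk lung, fewer cells of a type and less RNA per cell cannot be told apart, and the part of the macrophage markers in the member differences was not tested. Neutrophils also express Lcn2 and Lrg1. Of 9 tested neutrophil markers 2 rose by Day 7 in each genotype, against 10.2% of all probe sets in FP-KO and 15.1% in WT lungs. From Day 0 to Day 14, 5 were lower and 1 higher in WT lungs, and 2 were lower in FP-KO lungs. Of all probe sets 17.2% were lower and 19.2% higher in WT lungs, and 183 of 21403 were lower in FP-KO lungs. Their median log2 change was -0.34 in FP-KO and -0.15 in WT lungs for the 9 markers by Day 7, and -1.04 and -0.76 by Day 14. On Day 0, 0 of these 9 differed between the genotypes by limma, with 3 at an unadjusted p under 0.05 and a median log2 difference, FP-KO minus WT, of 0.49. The summed intensities on Day 0 were 9051 to 28379 in FP-KO lungs and 6637 to 10493 in WT lungs. Their part in the Lrg1 difference on that day was not tested. Between the genotypes on Day 14, 0 of these 9 passed by limma, with 1 at an unadjusted p under 0.05. The summed intensities of the list overlapped on Day 14, at 4484 to 7770 in FP-KO lungs and 4518 to 6685 in WT lungs. S100a8 and S100a9, abundant neutrophil transcripts, differed by 0.29 ± 0.33 (limma adjusted p = 0.683) and 0.68 ± 0.36 (limma adjusted p = 0.282).

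Across the 25 lungs, which share day and genotype, 12052 other genes were ranked by how closely their log2 intensity followed 4 members, as a description. Closest to Il6 were the chemokine Cxcl2 (Pearson r = 0.918), Hif1a (0.912), Olfm1 (0.910), Litaf (0.906) and Ccl2 (0.902). Closest to Saa3 were Cxcl10 (0.966), Cyp7b1 (0.939), Timp1 (0.937), AA467197 (0.934) and Ptger4 (0.931), a prostaglandin E receptor. Closest to Socs3 were Aen (0.935), Lgals1 (0.929), Cks1b (0.929), Cstb (0.925) and Agfg1 (0.923). Lrg1 was followed by a different group, Lgals3bp (0.964), the collagen cross-linking enzyme Loxl1 (0.957), and 3 lysosomal proteases or their partners, Ctsb (0.963), Ctsd (0.954) and Ctsa (0.954).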

How the data were processed

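Lung RNA of 25 mice was hybridised to 1 array each. Per the labels' protocols, total RNA was extracted with Sepasol and 6 ug was used for biotinylated cRNA. The deposited table holds linear intensities of 45101 probe sets. As the deposited values show, the authors brought every array to the same trimmed mean, 500 after the outer 2% of values on either side. The program that made the signals is not named in the labels. Groups and mouse numbers come from the sample titles, each array being taken as 1 mouse. Precision is set by 4 or 5 arrays a group.

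Intensities were quantile-normalized, floored at 24.4 (the 20th percentile) and taken to log2. Control probe sets (64) and those with several symbols (932) or none (9160) were left out. Of the 34945 with 1 symbol, 34741 matched the RefSeq gene table (GRCm38.p6) and 0 were renamed. A probe set was tested when above 136.6, the median of all values, in at least 4 arrays, which left 21403. R 4.3.3 with limma 3.58.1 fitted 6 group means without covariates, with 12 contrasts, moderated by eBayes and adjusted by Benjamini-Hochberg. The brightest probe set stands for a gene. On simulated data 173 of 200 changes of 1 log2 unit were recovered among 21403 probe sets, with 5 false calls. Figures used python 3.11.15 and matplotlib 3.10.9. Promoters come from RefSeq.

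Named genes are the 10 members, up to 4 passing genes a list and comparison by size, and the 5 genes closest to Il6, Saa3, Socs3 and Lrg1. Osm, Hp, Il4ra, Itga8, S100a8, S100a9, Saa1, Saa2 and albumin were named after their values were seen. The members and lists were chosen with earlier results of these data known. Mice of equal number deviated together on Day 0 (correlation 0.143 to 0.490) and Day 7 (0.110 to 0.231) and for 3 of 4 numbers on Day 14 (0.271 to 0.533, and -0.392 for No. 3), so the number was tried as a block. Other alternatives were no quantile normalization, the floor before normalization, floors at the 10th and 30th percentile, no filter, 1 probe set a gene, trend and robust eBayes, array weights, the sets of Day 14 arrays, and leaving out each mouse. The lists without FP-KO Day 14 No. 2 were added after seeing the data.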

Additional observations from a re-analysis of the deposited data

Results flagged for a closer look

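Serpina3n in FP-KO Day 14 No. 1 was at 2754, apart from the other 3 FP-KO Day 14 lungs at 1470.6 to 1612.4, a gap of 0.859 of the group's range on the log2 scale. It was the 1 such case in 60 groups examined (6 for the brightest probe set of each member), where chance gives about 3. The interaction of genotype and time for Lrg1, Day 14 from Day 0, was -1.09 on the log2 scale, by the test of the difference itself (limma adjusted p = 0.0381). It joins a Lrg1 difference, FP-KO minus WT, of 0.425 on Day 0 to one of -0.66 on Day 14. As given above, the call was lost on leaving out any 1 of several mice.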

How the results depend on the processing

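The number of members passing on Day 7 against Day 0, 7 in each genotype, and on Day 14 against Day 0 in WT lungs, 8, did not move when any 1 mouse was left out. Leaving out each mouse gave 1 to 4 members for FP-KO Day 14 against Day 0, 4 to 5 for FP-KO Day 14 against Day 7, 0 to 1 for WT Day 14 against Day 7, 1 to 6 for FP-KO against WT on Day 14, 0 to 3 for the interaction from Day 0 to Day 14, and 0 in the other 4 comparisons. For WT Day 14 against Day 7, where 0 passed, array weights gave 6, the first set of Day 14 arrays alone 3, and the floor at the 30th percentile and the set as a term 1 each. For FP-KO against WT on Day 14 the first set alone gave 3 and the second 0, and for FP-KO Day 14 against Day 7 the second gave 2. For the interaction from Day 0 to Day 14, with 1 member passing, no filter and the second set alone gave 0, 1 probe set a gene, array weights and the set as a term 2, and the first set alone 3. The share of all probe sets called also moves between such fits and is not set beside these counts, which are descriptions. Of 120 values from the members' other probe sets, 44 had the opposite sign to the brightest one. In 43 of these neither probe set passed, and in 1 the other did, Stat3 in WT lungs on Day 7 against Day 0, at -0.40 in a dim probe set. The cause of these changes was not tested, except that the sets hold fewer arrays.

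With the mouse number as a replicate block in all groups, the interaction from Day 0 to Day 14 gave 2 members, with Saa3 at -2.10 (limma adjusted p = 0.0356), and FP-KO against WT on Day 14 gave 5. On Day 14 that block partly follows the sets of arrays and pairs FP-KO No. 3 with a WT array of the other set, so these counts are descriptions. The block within Day 0 and Day 7 alone, chosen after seeing the data, gave 7 members in each genotype on Day 7 against Day 0 and changed no other count. Over all probe sets, FP-KO against WT on Day 14 called 1500, with 4684 under array weights, 5 within the second set, and 365 to 1842 on leaving out 1 mouse. Dim signals limit Il6, which lay under the filter in most arrays.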

Other observations

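Lung structural markers also differed on Day 14. Of 10 fibroblast markers 4 were lower and 2 higher in FP-KO than in WT lungs: Col1a1 and Col1a2, the chains of type I collagen, were at -1.21 ± 0.24 (log2, SE; limma adjusted p = 0.0046) and -0.69 ± 0.14 (limma adjusted p = 0.0046), Lum, a collagen-binding proteoglycan, was at -0.71 ± 0.19 (limma adjusted p = 0.0279), and Inmt was at 0.69 ± 0.16 (limma adjusted p = 0.0103). Of 9 tested club and goblet cell markers 3 were higher, among them Scgb3a2, a secretoglobin of airway epithelium, at 0.39 ± 0.08 (limma adjusted p = 0.00734). Of 10 endothelial markers 2 were higher, Ednrb, an endothelin receptor, at 0.79 ± 0.15 (limma adjusted p = 0.00482), and Tek, the angiopoietin receptor, at 0.42 ± 0.11 (limma adjusted p = 0.0199). Without FP-KO Day 14 No. 2, 2 fibroblast markers were lower, Col1a1 (-1.17, limma adjusted p = 0.0269) and Col1a2 (-0.61, limma adjusted p = 0.0335), and 1 was higher, Itga8 (0.55, limma adjusted p = 0.0141). Ednrb also passed (0.63, limma adjusted p = 0.0345), and 0 of the 9 club and goblet cell markers did by limma, with 3 at an unadjusted p under 0.05. Of 8 alveolar type 2 markers 0 passed by limma, and 0 had an unadjusted p under 0.05.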
